A study of Mus musculus with 375 samples.

Results

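Nrn1, Fam20c, Lbh, Calcoco1, Ccdc120, Fam134b and Abcc2 are 7 of the 23420 genes measured in single Lgr5+ cells of the mouse small intestine. They were taken from an earlier analysis of the same expression table, which placed them in a state met more often in cells of control-fed mice. That analysis used the diet difference and the grouping of these very cells, so the levels, shares and co-occurrence of the 7 genes are given below as a description with no test. Cells had been sorted by flow cytometry for Lgr5, the receptor that marks crypt base stem cells, from mice given either control food or a high fat diet (HFD). Each was sequenced by Smart-seq2, a plate method that copies full-length mRNA from 1 cell per well without recording strand. The titles divide the cells into 4 sets, control 1, control 2, HFD 1 and HFD 2, and diet is the single difference the labels give. The sources used here do not name the strain, age, sex, length of feeding, diet composition or the reporter behind the sort.

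Crypt base stem cells cycle quickly and hand their daughters to a zone of faster-dividing progenitors, and cells that leave the cycle keep or lose stem markers according to where they go. The 7 genes have unrelated textbook roles. Nrn1 (neuritin) is a small protein held on the cell surface by a glycolipid anchor and is best known for promoting neurite growth, and Fam20c is the Golgi kinase that phosphorylates most secreted phosphoproteins. Lbh is a transcription cofactor known as a Wnt target in mammary epithelium, and Ccdc120 is a coiled-coil protein of the centriole's subdistal appendages. Fam134b, named Retreg1 in newer annotation, bends the endoplasmic reticulum membrane and delivers it to autophagosomes (ER-phagy). Calcoco1 is a nuclear receptor coactivator that also serves as an autophagy receptor for the endoplasmic reticulum and Golgi. Abcc2 (Mrp2) is an apical pump that exports conjugated drugs, bilirubin and glutathione conjugates.

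Values are TPM, a unit in which every cell's transcripts sum to the same total. They are scaled for transcript length and can be compared between genes. Of 375 cells, 367 had at least 2000 genes above TPM 0, with 93, 91, 91 and 92 cells in control 1, control 2, HFD 1 and HFD 2. The sparsest cell kept had 2217 genes, the richest cell left out had 977, and no pair of cells had identical values. TPM keeps no read depth, so cells could not be thinned to a common depth, and a 0 may be a transcript that was missed. Of all TPM, 39.1%, 24.6%, 26.9% and 18.6% belonged to Rn45s, the precursor of ribosomal RNA, and the median number of genes per cell was between 6130 and 6895. Lymphocyte, myeloid and stromal markers were near 0, with a summed mean of at most 4.88 TPM in any set and Cd3g, Emr1, Fcgr3, Tyrobp, Col1a1, Col3a1 and Cdh5 below 1 TPM in every cell. Summed Paneth markers were at 76.6, 37.4, 5059 and 524 TPM in control 1, control 2, HFD 1 and HFD 2, and summed enterocyte markers at 763, 893, 1342 and 1498 TPM. Counting Paneth, goblet, enteroendocrine and tuft lists, 66 cells carried at least 3 markers of another type at 10 TPM or more. No cell did so for the enteroendocrine, tuft, blood or stromal lists, so all 66 were picked by Paneth or goblet markers. The part of these cells in the results was not tested as a cause, but the 7 genes are given without them below.

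The genes lie on different chromosomes except for a pair on chromosome 15, in GENCODE M21 on build GRCm38 (the mm10 assembly). Nrn1 occupies chr13:36725361-36735131 on the minus strand and overlaps Fars2, a mitochondrial tRNA synthetase gene on the opposite strand. Fam20c occupies chr5:138754514-138810077 on the plus strand, and Lbh chr17:72918305-72941947 on the plus strand. Calcoco1 lies at chr15:102706777-102722178 on the minus strand, and Fam134b at chr15:25843180-25973687 on the plus strand. Ccdc120 lies at chrX:7731714-7750905 on the minus strand and Abcc2 at chr19:43782192-43840740 on the plus strand. RefSeq promoter windows on GRCm38.p6 matched 6 of the 7, the exception being Nrn1. These windows are set on the RefSeq start, which for Fam20c, Fam134b, Ccdc120 and Abcc2 lies inside the gene as GENCODE draws it. The 250 bases before the RefSeq start held 41 CpG dinucleotides at Fam20c, 33 at Fam134b, 21 at Lbh, 14 at Calcoco1, 3 at Ccdc120 and 1 at Abcc2, against a median of 6 over all 32851 windows. The group thus joins CpG-dense and CpG-poor promoters. The windows of Lbh and Calcoco1 are shown because their starts agree between RefSeq and GENCODE. Each is the 150 bases before the start, chr17:72918155-72918304 (plus strand) for Lbh and chr15:102722179-102722328 (minus strand) for Calcoco1, and capitals mark CpG.
Lbh: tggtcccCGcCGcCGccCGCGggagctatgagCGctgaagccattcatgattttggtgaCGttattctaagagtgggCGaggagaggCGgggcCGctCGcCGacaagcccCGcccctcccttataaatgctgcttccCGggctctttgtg
Calcoco1: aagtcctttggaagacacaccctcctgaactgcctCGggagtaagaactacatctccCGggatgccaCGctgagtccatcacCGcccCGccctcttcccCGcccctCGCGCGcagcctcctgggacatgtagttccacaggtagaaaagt

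Searching both strands of the 250 bases for 6 motifs found 2 matches in the 6 windows. The hexamer AGGTCA, bound by many nuclear receptors, stood 49 to 44 bases before the RefSeq start of Abcc2, which puts it inside the GENCODE gene, and is found in 14% of all windows. It is shown because Abcc2 is a textbook target of xenobiotic nuclear receptors, with the hexamer in capitals within chr19:43782247-43782276 (plus strand).
Abcc2: tgtcaggatgaaAGGTCAggagacttgcct
The GATA core AGATAA stood 196 to 191 bases before the RefSeq start of Ccdc120, on the opposite strand and likewise inside the GENCODE gene, and is found in 9.99% of windows. The letters CTTTGA (TCF/LEF core, 13.8% of windows), CAGCTG (an E-box, 13%), CACGTG (an E-box, 6.02%) and TGTTTA (forkhead core, 12%) were in none of the 6. No motif was shared, and a match or its absence in these letters says nothing of binding.

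Nrn1 was a gene of a minority of cells with high levels in each. A cell is called positive at 1 TPM or more. Nrn1 was positive in 38 of 93 cells of control 1 (40.9%, exact Clopper-Pearson 95% interval 30.8 to 51.5%, covering counting error only) and in 35 of 91 cells of control 2 (38.5%). In HFD 1 it was positive in 12 of 91 cells (13.2%, interval 7.0 to 21.9%) and in HFD 2 in 13 of 92 cells (14.1%). The control sets lay close together and far above the HFD sets, a difference of 26.0 percentage points in which the sets of a diet varied by 1.29 points (SD within diet). That SD comes from 2 sets per diet and is smaller than the counting error of a share, so it is a poor measure of the spread between sets. Mean levels were 18.1, 29.6, 3.06 and 8.87 TPM in control 1, control 2, HFD 1 and HFD 2. On log2(mean TPM + 1) the HFD sets were lower by a mean of 1.93, with a spread between sets of 0.73. Among positive cells the median was 35.2, 55.1, 19.9 and 50.3 TPM. The levels within positive cells overlapped between diets, and the share of positive cells did not. No cell had an Nrn1 value between 0 and 1 TPM, and at a threshold of 10 TPM the counts were 31, 31, 9 and 10 cells. Fars2, the overlapping gene, averaged 62.3, 54.0, 51.2 and 64.3 TPM, without the diet order of Nrn1, and its correlation with Nrn1 over cells lay between -0.15 and 0.08. Reads of the overlap cannot be assigned to a strand in these libraries.

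The genes of endoplasmic reticulum and Golgi turnover, Fam134b and Calcoco1, were found in more cells than Nrn1. Fam134b was positive in 62.4%, 48.4%, 33.0% and 31.5% of cells in control 1, control 2, HFD 1 and HFD 2, and averaged 29.1, 19.1, 11.97 and 12.4 TPM. Both measures separated the diets, with a log2 difference of -0.90 (spread 0.29). Its median in positive cells was 24.99, 27.7, 30.5 and 27.2 TPM, so a cell with Fam134b held about the same level in every set. Calcoco1 was positive in 60.2%, 50.5%, 36.3% and 44.6% of cells and averaged 33.2, 20.8, 11.8 and 13.2 TPM (log2 difference -1.02, spread 0.33). Its median among positive cells was 15.95, 10.7, 13.2 and 15.8 TPM, without the diet order of its mean. Its upper quartile among positive cells was 100.67 TPM in control 1 and 34.5 to 44.7 TPM in the other sets, and 14 cells of control 1 exceeded 100 TPM against 8, 2 and 2 elsewhere. The diets were separate in Calcoco1 mean and share, by a smaller margin than for Fam134b in the share. At 10 TPM or more the lowest control and highest HFD shares of Calcoco1 were 26.4% and 26.1%, and without the cells carrying markers of other types they were 50% in control 2 and 50.7% in HFD 2, which no longer separated the diets.

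Abcc2, the apical exporter, was positive in 55.9%, 50.5%, 39.6% and 37.0% of cells. Mean levels were 17.8, 14.5, 6.57 and 8.51 TPM, a log2 difference of -1.01 with a spread of 0.22. Its median within positive cells was 21.4, 20.9, 7.01 and 13.1 TPM. Abcc2 was therefore lower in HFD sets both in the share of cells and in the level of a positive cell, and it alone of the 7 had sets separate by diet in both measures.

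For Lbh, Fam20c and the share of Ccdc120, control 1 differed from control 2 as much as the diets differed. Lbh was the most widely detected of the 7, in 83.9%, 67.0%, 68.1% and 62.0% of cells, with mean levels of 28.0, 9.11, 9.94 and 9.59 TPM. Control 1 stood apart while control 2 was below both HFD sets in the mean. The cell of control 1 with the most Lbh, at 425 TPM, held 16.3% of the set's sum, and the mean without it was 23.7 TPM. The log2 difference of -0.67 was within the spread of 0.76, and without control 1 it turned to 0.091. Fam20c, the secretory kinase, was positive in 29.03% of control 1 cells and in 9.89%, 10.99% and 14.1% of the others. Its means of 11.4, 1.26, 4.66 and 8.15 TPM put control 2 lowest, and the log2 difference was 0.44 towards HFD, within a spread of 1.27, and -0.17 when log2 values were averaged over cells instead. Single cells carried 34.5%, 37.5% and 36.8% of the Fam20c sum in control 2, HFD 1 and HFD 2. The name of the state as control-rich therefore did not hold for Fam20c in mean level, and for the Lbh mean and the Fam20c share it rested on control 1. Ccdc120 was positive in 31.2%, 17.6%, 15.4% and 21.7% of cells and averaged 6.79, 5.05, 1.56 and 4.10 TPM (log2 difference -0.93, spread 0.53). The Ccdc120 difference was -0.43 without HFD 1 and -0.32 when log2 values were averaged over cells. Averaged in that way, control 2 (0.75) lay below HFD 2 (0.78). Its means were separate between diets but its shares were not, and without control 1 its share was 0.98 percentage points higher in HFD.

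Mean TPM of both control sets was above both HFD sets for 5 of the 7 genes (Nrn1, Calcoco1, Ccdc120, Fam134b and Abcc2), as it was for 12.3% of the 11667 genes that averaged 1 TPM or more. The share of positive cells was separate in the same sense for 4 of 7 (Nrn1, Calcoco1, Fam134b and Abcc2), against 11.8% of genes. The genes were chosen on this contrast, so nothing is read from these counts. Over the 7, the median log2 difference was -0.93, while the median of all genes was 0.13, or -0.05 with Rn45s left out of the total. The mean share over the 7 genes was 51.9%, 40.3%, 30.9% and 32.1%, a difference of -14.6 percentage points that became -8.81 without control 1 and -20.4 without control 2. Leaving out the 66 cells with markers of other types gave log2 differences of -1.75 for Nrn1, -1.07 for Fam134b, -0.98 for Calcoco1, -0.92 for Abcc2, -0.72 for Lbh, -0.58 for Ccdc120 and 0.65 for Fam20c. Each kept its sign, but with the overlap of Calcoco1 shares given above. Ccdc120 levels also overlapped without those cells, at a log2 level of 2.14 in control 2 and 2.44 in HFD 2. Pooled over the 4 sets, Nrn1 was positive in 18.2% of those 66 cells and in 28.6% of the remaining cells, whereas Fam134b was positive in 53.0% and 41.9%. Leaving them out kept 82 cells in each control set, 66 in HFD 1 and 71 in HFD 2. Most of them thus came from HFD sets, and the pooled shares mix in diet. Without them the Nrn1 share was 40.2% and 37.8% in control 1 and control 2, slightly below the 40.9% and 38.5% of all cells. In HFD 1 and HFD 2 it was 16.7% and 15.5%, above the 13.2% and 14.1% of all cells.

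**Figure D1:**
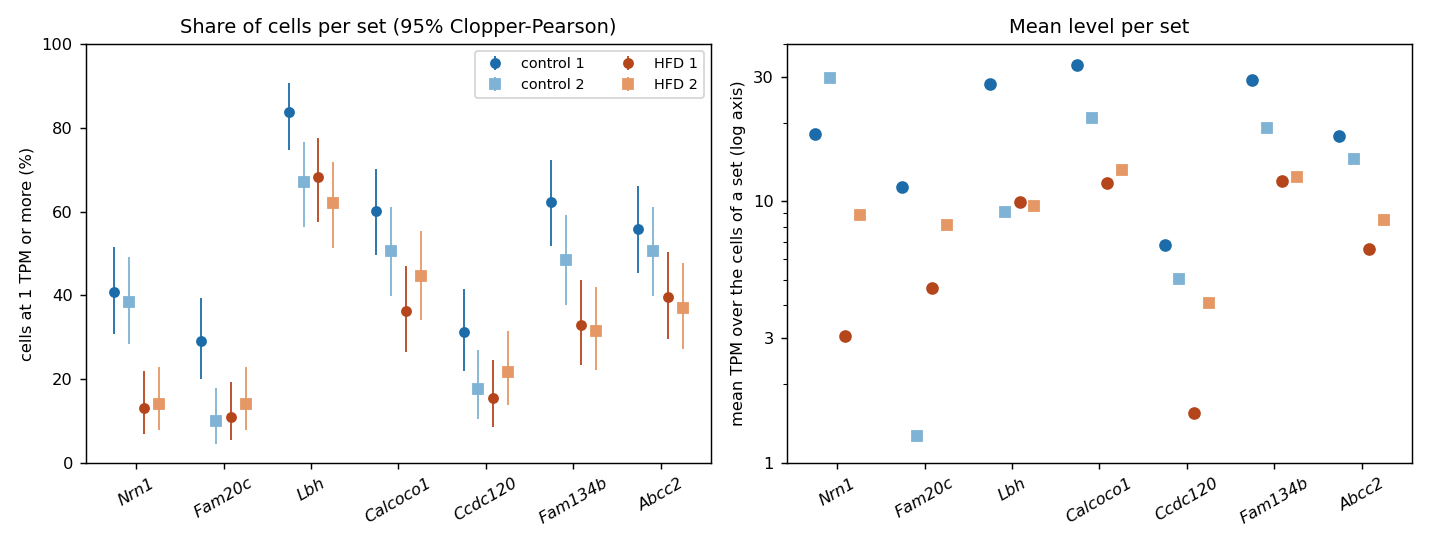
Share of positive cells (left, percent of the cells of a set at 1 TPM or more, with exact 95% intervals) and mean level (right, TPM on a log axis) of each gene in the 4 sets. Nrn1 shares are 40.9% and 38.5% in control and 13.2% and 14.1% in HFD sets, while the Fam20c mean is lowest in control 2, at 1.26 TPM.

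Within a set, the 7 genes went together weakly. Pearson correlations of log2(TPM + 1) were taken over the 91 to 93 cells of each set. These cells may share the handling of their set, differ in genes per cell and carry many zeros. Over the 21 pairs the mean was 0.14 in control 1, 0.06 in control 2, 0.08 in HFD 1 and 0.07 in HFD 2. The mean over sets was above 0 for 18 pairs and below 0 for 3, each of which held Ccdc120. Only the pairs Lbh with Fam134b (0.22) and Fam20c with Calcoco1 (0.21) reached a mean of 0.2, and 6 pairs were above 0 in all 4 sets. Fam20c and Calcoco1 were both positive in 41 cells, where the product of their shares in each set would sum to 30.2 cells. Nrn1 and Abcc2, by contrast, had a mean correlation of 0.01 and shared 51 positive cells, against 48.5 from the product.

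Lbh had the highest mean correlation with the other 6 genes (0.14), followed by Fam20c (0.12), Fam134b (0.11), Calcoco1 (0.10), Nrn1 (0.08), Abcc2 (0.05) and Ccdc120 (0.01). The median correlation of a member with the 11660 other genes lay between -0.02 and 0.01, and the 95th percentile between 0.09 and 0.11. The correlation with genes of the group was above that percentile for 4 of 6 partners of Lbh, Fam20c, Calcoco1 and Fam134b, for 3 of 6 partners of Nrn1, for 2 of 6 of Abcc2 and for none of Ccdc120. Ccdc120 thus stood outside the group by this measure. In sparse single-cell values such small correlations describe the group and are no finding.

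**Figure D2:**
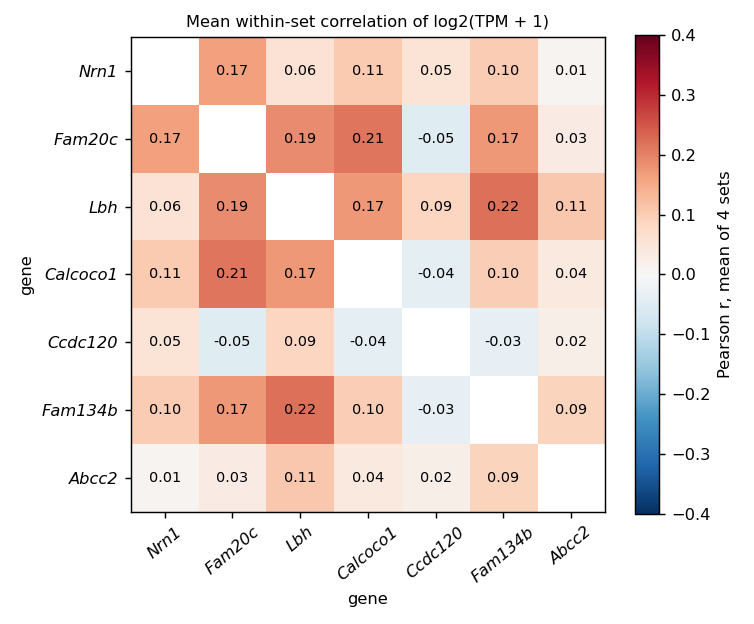
Pearson correlation of log2(TPM + 1) between each pair of the 7 genes, as the mean over the 4 sets. The highest value is 0.22 for Lbh with Fam134b, and the pairs with Ccdc120 lie between -0.05 and 0.09.

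Counting how many of the 7 genes each cell held gave means of 3.63, 2.82, 2.16 and 2.25 in control 1, control 2, HFD 1 and HFD 2. At least 4 were positive in 48 cells of control 1 (51.6%), 28 of control 2 (30.8%), 14 of HFD 1 (15.4%) and 20 of HFD 2 (21.7%). Cells with 6 or more numbered 14, 1, 1 and 0, and all 7 genes were positive in 2 cells, both of control 1. The upper tail was therefore mostly a property of control 1. None of the 7 was positive in 1, 4, 7 and 13 cells. Cells with many and with few of the genes occurred in every set. The counts ran without a break from 0 to 7 genes in control 1, from 0 to 6 in control 2 and from 0 to 5 in HFD 2, while HFD 1 had no cell with 5 and 1 cell with 6.

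**Figure D3:**
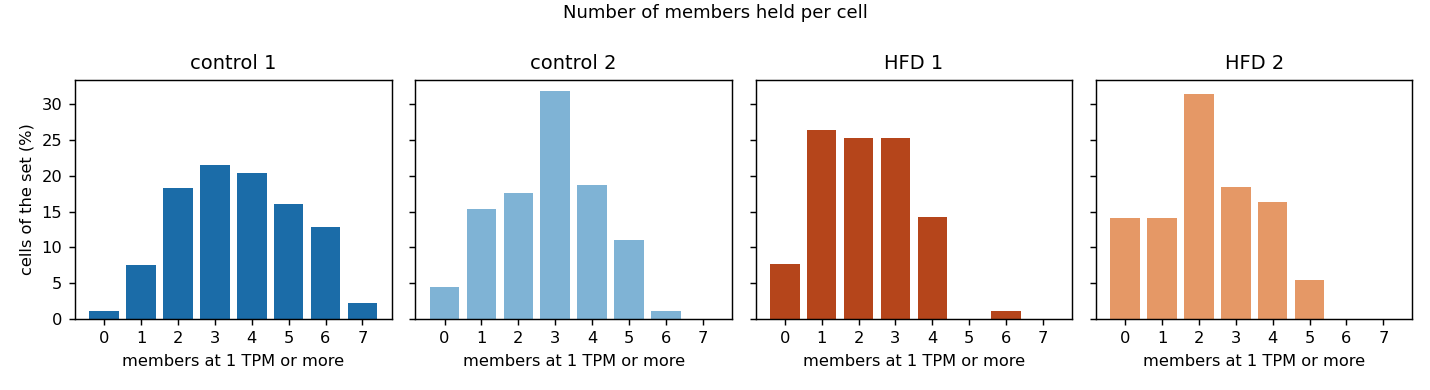
Share of the cells of each set (percent) by the number of the 7 genes at 1 TPM or more. The share at 4 or more is 51.6% in control 1, 30.8% in control 2, 15.4% in HFD 1 and 21.7% in HFD 2.

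Cells with more of the 7 genes had higher Lgr5 in every set, while proliferation transcripts were lower with more of the genes in both control sets and unevenly so in the HFD sets. Lgr5 averaged 47.1 TPM in the 8 cells of control 1 with 0 or 1 of the genes, 163 TPM in the 37 cells with 2 or 3 and 187 TPM in the 48 cells with 4 or more. The steps were 67.8, 105 and 175 TPM in control 2, 96.7, 149 and 180 TPM in HFD 1, and 81.4, 130 and 205 TPM in HFD 2. Lgr5 was higher at each step in all 4 sets. Mki67, the proliferation antigen, was positive in 87.5%, 62.2% and 54.2% of these cells in control 1, in 88.9%, 53.3% and 50% in control 2, in 77.4%, 71.7% and 71.4% in HFD 1, and in 61.5%, 56.5% and 35.0% in HFD 2. The S phase level had no steady order in the HFD sets, at 3.87, 3.92 and 3.34 in HFD 1 and 3.66, 3.97 and 3.32 in HFD 2, against 3.87, 3.23 and 2.91 in control 1 and 3.90, 2.96 and 2.15 in control 2. The G2/M level was 3.12, 2.87 and 2.41 in control 1, 4.21, 2.75 and 1.84 in control 2, 3.30, 2.99 and 3.35 in HFD 1, and 3.19, 2.78 and 1.999 in HFD 2. The 14 cells of HFD 1 with 4 or more genes thus had the highest G2/M level of that set. Median genes per cell were 6838, 7027 and 6824 at these steps in control 1 and 6905, 6757 and 6792 in HFD 1, but were lower with more of the genes in control 2 (6714, 6009 and 5960) and HFD 2 (6415, 6426 and 5997).

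Over the cells of a set, the mean log2 level of the 7 genes correlated with Lgr5 at 0.39, 0.33, 0.30 and 0.22, and with the mean of 30 crypt base stem cell markers at 0.33, 0.36, 0.27 and 0.13. The 42 S phase genes gave -0.31, -0.36, -0.31 and -0.14, and the 52 G2/M genes -0.30, -0.40, -0.21 and -0.23. All 4 sets had the same sign in each case. Stem markers did not all follow, since Ascl2, a stem cell transcription factor, gave a mean of -0.06 and Olfm4, an abundant crypt base glycoprotein, a mean of 0.12. Genes of growth arrest and nutrient withdrawal gave 0.22, 0.09, 0.26 and 0.15. The 7 genes were lower where more genes were detected (-0.27, -0.36, -0.15 and -0.06), and with genes per cell held constant the mean over sets was 0.25 for stem markers, -0.19 for S phase and -0.20 for G2/M. The Rn45s share correlated with the level of the 7 at 0.09 to 0.15.

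**Figure D4:**
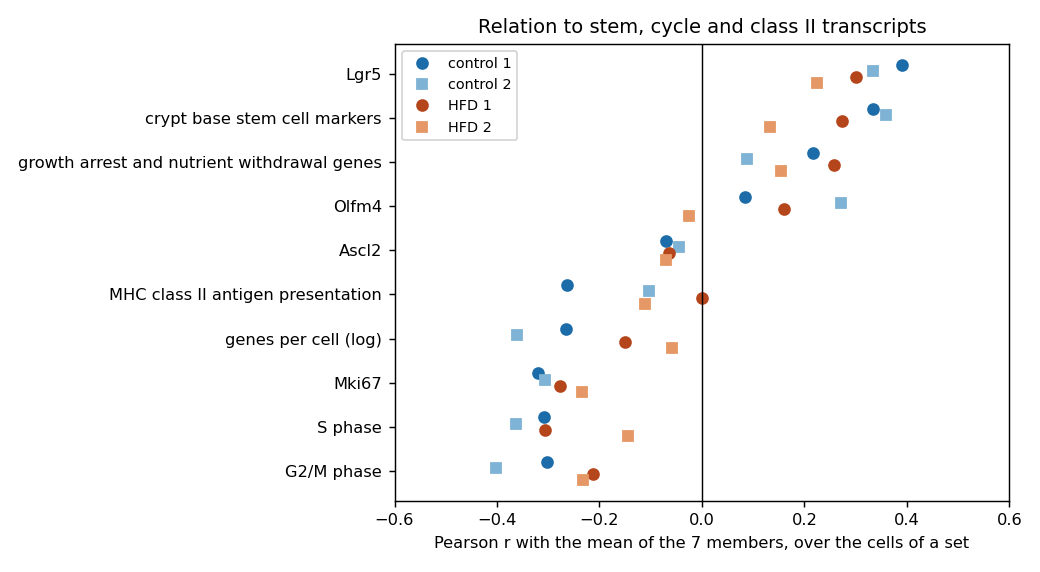
Pearson correlation, over the cells of each set, of the mean level of the 7 genes (members) with marker genes and lists, 1 point per set. Lgr5 lies at 0.22 to 0.39 and the G2/M genes at -0.40 to -0.21.

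The group relation was carried unequally by its genes. Lbh had the highest mean correlation with stem markers, 0.40. It correlated with Lgr5 at 0.53, 0.41, 0.38 and 0.32, and Lgr5 averaged 184 TPM in Lbh-positive cells of control 1 against 69.3 TPM in its Lbh-negative cells. Fam20c followed with a mean correlation of 0.20 with Lgr5 and -0.23 with G2/M genes. Calcoco1 and Fam134b had mean correlations of -0.22 and -0.20 with S phase genes, and of 0.10 and -0.005 with stem markers. Nrn1 had a mean of 0.12 with both Lgr5 and stem markers and -0.01 with S phase genes, with -0.24 in control 2 and 0.03 to 0.10 in the other sets. Abcc2 changed sign between sets, with 0.32 in HFD 1 and -0.09 in HFD 2 for stem markers. Comparing positive with negative cells of each gene in each set, the stem level was higher in positive cells in 26 of 28 comparisons, the S phase level in 5 and the G2/M level in 5. Some of these differences were small, such as 0.011 in stem level for Fam134b in HFD 2. The comparisons reuse the same cells and no such count was made for other genes, so nothing is read from these counts.

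Of 7 MHC class II genes, which serve antigen presentation, 6 fell in HFD sets by limma's adjusted p. Of all 11667 genes, 0.137% were called lower. The class II list was chosen with earlier results of these data known, so nothing is read from setting its count beside that share. Class II genes did not accompany the 7 genes within sets. The class II level correlated with the mean of the 7 at -0.26, -0.10, 0.00 and -0.11. It was higher in positive cells in 7 of 28 comparisons, a count that was likewise not made for other genes. Abcc2 showed the relation most, with a mean of -0.14. In the fit across all genes, Cd74, the class II invariant chain, averaged 495 and 461 TPM in control and 198 and 170 TPM in HFD sets (log2 difference -1.38, SE 0.26, limma adjusted p = 0.0089). The size of the Cd74 difference held while its limma call was lost with Rn45s left out of the total (-1.54, adjusted p = 0.061). The call was also lost in the middle range of genes per cell (-1.51, limma adjusted p = 0.063) and with no filter on low genes (-1.38, limma adjusted p = 0.67). The Cd74 difference was -1.49 without HFD 1 and -1.26 without HFD 2. Of the 6 class II calls, 0 remained with Rn45s left out (limma adjusted p = 0.061 to 0.11). Likewise 0 remained in the middle range of genes per cell (limma adjusted p = 0.063 to 0.70) and with no filter on low genes (limma adjusted p = 0.67). Without HFD 1 the 6 differences lay between -1.49 and -1.03, against -2.06 to -1.31 with all sets.

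The S phase level, a mean of log2(TPM + 1), was 3.12 and 2.90 in the control sets against 3.81 and 3.74 under HFD, so the 7 genes were also compared within broad classes of proliferation. Cells were divided at the median of the joint S phase and G2/M level over all 367 cells, a division chosen after seeing the data that does not match the level within a class. Below it were 55, 49, 36 and 44 cells, and above it 38, 42, 55 and 48. Among the less proliferative cells Nrn1 was positive in 45.5%, 49.0%, 19.4% and 11.4%, and among the more proliferative in 34.2%, 26.2%, 9.1% and 16.7%. In this share, control sets were above HFD sets in both classes. The log2 difference in mean level was -2.45 below the median and -0.59 above it. Above the median the log2 level was 3.13 in control 2 and 3.24 in HFD 2, so the diets overlapped. Ccdc120 gave -1.71 and -0.14, Calcoco1 -1.02 and -0.54, Lbh -0.66 and -0.16, and Fam134b -0.82 and -0.56. Abcc2 went the other way, with -0.79 and -1.11, and Fam20c gave 0.85 and -0.10. Set levels overlapped between diets for all but Fam134b and Abcc2 above the median, and for Lbh and Fam20c below it. The gap between the divisions was not tested.

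**Figure D5:**
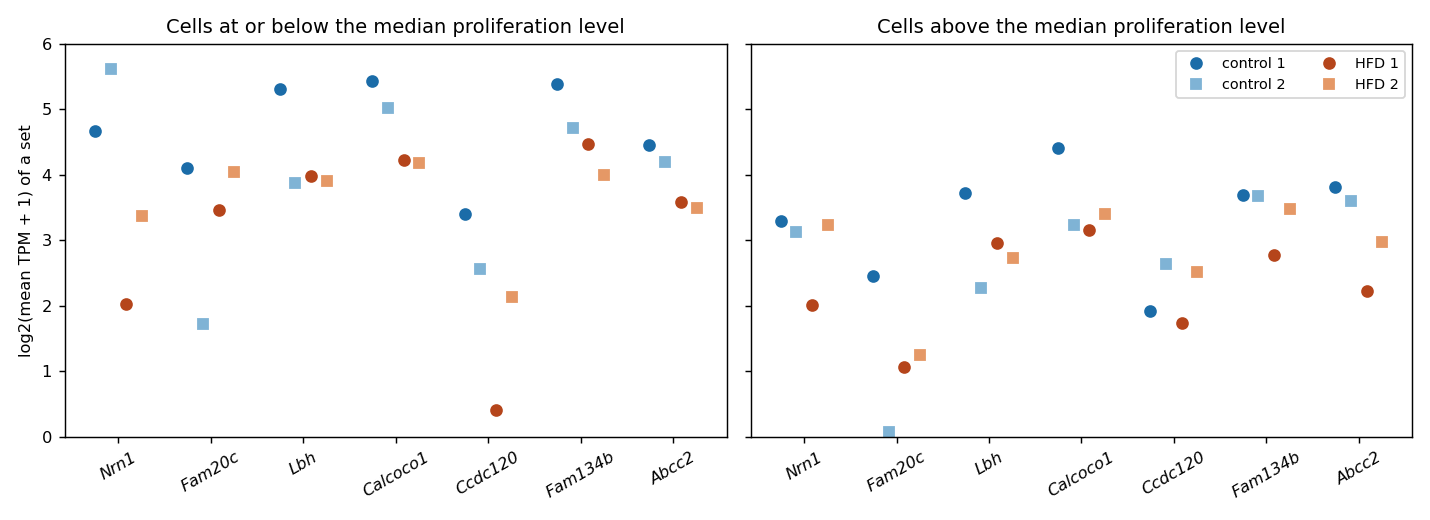
Level of the 7 genes in each set, as log2(mean TPM + 1), in cells at or below the median proliferation level (left) and above it (right). Abcc2 is higher in both control sets than in both HFD sets in both panels.

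Among 9136 genes positive in at least 25% of cells, those most like Nrn1 over cells were Lysmd2 (mean correlation over the 4 sets 0.22), Vwa2 (0.19), Cds2, a CDP-diacylglycerol synthase (0.19), Cxadr, a tight junction receptor (0.19), and Ranbp9 (0.18), followed by Rplp0, Dvl2, Apex1, Evi5 and Aldoa. The lowest were Calr, the endoplasmic reticulum chaperone calreticulin (-0.22), Akr1c19, Rcl1, Zfp944 and Diablo. Only 1 gene reached 0.2 with Nrn1, so no close partner of Nrn1 was found among these 9136 genes. Genes positive in fewer cells were not searched, and zeros of unknown depth limit such correlations. With the mean of the 7 genes 45 genes reached 0.2. Highest were Pdgfa, a growth factor (0.35), Lgr5 (0.31) and Cers6, a ceramide synthase (0.31), followed by Fam13a, Eef1a1, Sepp1, Krt18, Rnase4, Chp1 and Ftl1. The lowest were the S phase enzyme Tk1 (-0.34), the histone H2afz (-0.34), the nuclear transport GTPase Ran (-0.33), Lsm3 (-0.33) and Ranbp1 (-0.32). Pdgfa averaged 97.4, 123.8, 62.6 and 108.0 TPM, and Cers6 213, 163, 180 and 110 TPM, so for both the control and HFD sets overlapped.

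Among relatives and pathway partners of the 7 genes, none was called between diets. The limma test on log2(mean TPM + 1) over the 4 sets called 59 of 11667 genes at an adjusted p of 0.05, which is 0.506% (43 higher in HFD, 0.369%, and 16 lower, 0.137%). Among 11 selective autophagy receptors, 11 ER-phagy receptors and reticulons and 29 genes of the core autophagy machinery, none passed in either direction, with median log2 differences of 0.01, 0.12 and 0.05. The Fam134b paralogs Fam134a and Fam134c gave -0.27 each (adjusted p = 0.79 and 0.80), and Tax1bp1, a relative of Calcoco1, averaged 83.2, 113, 116 and 128 TPM (0.32, adjusted p = 0.66). Of 14 ABC transporters none passed, Abcc3 at -0.75 (SE 0.32, adjusted p = 0.40) having averaged 20.3, 15.5, 13.0 and 7.85 TPM. None of 22 genes of xenobiotic conjugation passed, Nr1i3, the nuclear receptor CAR that is known to act on Abcc2, being at 5.49, 5.21, 1.42 and 3.38 TPM (-0.96, SE 0.43, adjusted p = 0.42). The secretory kinases Fam20a (-0.22) and Fam20b (-0.59, adjusted p = 0.41) did not pass, and neither did any of 10 centriole appendage or 9 surface-anchored proteins tested. A missed threshold with 2 sets per diet does not show that these genes were equal.

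The marker lists used above were tested in the same fit. Higher in HFD sets by adjusted p were 8 of 11 Paneth markers, 3 of 10 goblet markers (Agr2, Guca2a and Spdef), 1 of 11 enterocyte markers (Fabp1) and 1 of 2 enteroendocrine markers (Sct). Without the 66 cells picked by their Paneth or goblet markers, 0 of the 8 Paneth calls remained, with 6 of the 8 genes still tested. Because the same markers picked those cells, that loss was built in and is no check of the calls. With Rn45s left out, 2 of the 8 Paneth calls, the Fabp1 call and no goblet or enteroendocrine call remained. Of 2 T cell, 2 myeloid and 1 tuft marker tested none passed. None of the 30 stem cell markers passed, Lgr5 averaging 165, 119, 136 and 133 TPM (log2 difference -0.06, adjusted p = 0.96) and Ascl2 80.3, 73.0, 91.2 and 105 TPM (0.35, adjusted p = 0.61). For Lgr5, the control sets lay on either side of both HFD sets. None of 42 S phase genes passed, although their median was 0.55 and 41 of the 42 were above 0. Of all tested genes 37.5% were below 0, and the median of all was 0.13. Pcna, the replication clamp, averaged 169, 164, 321 and 335 TPM (0.98, adjusted p = 0.10). None of 52 G2/M genes passed, with a median of 0.19, nor did any of 26 growth arrest genes, with a median of -0.03.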

How the data were processed

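The deposited table gives TPM for 23420 genes in 375 cells. Per the submitters' processing notes, the authors used Bowtie2 and RSEM with mm10, with no version or annotation given in the sources used here. Cells needed 2000 genes above TPM 0. Each set was averaged over cells, and limma 3.58.1 (R 4.3.3) with a mean-variance trend was fitted to log2(mean TPM + 1) by diet for genes averaging 1 TPM or more (two-sided, Benjamini-Hochberg adjustment). It was checked on simulated data with 200 changed genes. No label ties a set to its own mouse, and p-values measure only the spread between these sets, which may be technical. A log2 difference on this scale understates changes of low genes. The spread beside a difference is the pooled SD of the sets within a diet. The 7 genes and all lists were chosen with earlier results of these data known. Named are the 7 genes, the 10 genes most and 5 least like Nrn1 or their mean with 1 sign in all sets, called or lowest-p list genes, their paralogs, and fixed markers. Correlations carry no p. Alternatives covered pseudocount, scaling, Rn45s, cell filters, thresholds and leaving out each set.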

Additional observations from a re-analysis of the deposited data

How the results depend on the processing

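The median difference of the 7 genes kept its direction under all 15 alternatives, from -1.19 (without control 2) to -0.54 (cells above the median proliferation level). It moved by less than 0.53, the median of the spreads of the 7 genes. The mean share and mean correlation of the 7 kept their direction and moved by less than their own spread between sets under 12 alternatives each. The share difference still ranged from -20.4 to -8.81 percentage points when a set was left out. Single genes reversed: the Fam20c level to -0.17 as a mean of per-cell logs, to -0.10 among cells above the median proliferation level (added after seeing the data) and, with each set left out, between -0.78 (without control 2) and 1.67. With each set left out, the Lbh level ranged from -1.43 to 0.091 (without control 1), the Fam20c share from -16.5 to 2.67 and the Ccdc120 share from -12.6 to 0.98 percentage points (both reversed without control 1). In the middle range of genes per cell the Calcoco1 level was -0.55, and the Lbh and Abcc2 shares -0.12 and -9.04 percentage points. In those cells the log2 level of Calcoco1 was 4.02 in control 2 and 4.39 in HFD 1, so the diets overlapped. Without control 1 the Lbh share was -1.99, and without HFD 2 the Ccdc120 level was -1.43. The G2/M relation moved from -0.29 to -0.20 with genes per cell held constant. The count of 59 called genes (43 higher, 16 lower) became 18 without cells carrying other markers (9 higher, 9 lower), 18 in the middle range of genes per cell (17 higher, 1 lower), 6 with Rn45s left out (5 higher, 1 lower), and 81 to 148 when a set was left out, where a lone set is assumed to vary like the others. Median-ratio scaling gave 42 (25 higher, 17 lower). With no filter on low genes limma called 0, with 1398 at an unadjusted p under 0.05. With the set number as a replicate block it called 635 (548 higher, 87 lower). The labels do not say that numbers pair the sets, whose deviations correlated at 0.23 over genes, so the block is given as a value only. Without counts, the depth behind each zero is unknown, which limits every share.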
